A study of Brassica napus with 12 samples.

Results

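The Calvin cycle and photorespiration genes described here are the loci of oilseed rape (Brassica napus) whose Arabidopsis match in the deposited annotation is one of 28 genes, 16 of the Calvin cycle and 12 of photorespiration. A locus was a member when it also reached at least 1 FPKM (mapped fragments scaled to transcript length and library size) in 2 or more of 12 libraries. Of 101040 loci, 147 matched a listed gene, 113 of these passed the level requirement and 112 could be fitted, against 49700 loci fitted in the whole series. They covered 25 of the 28 genes, because no locus was matched to RBCS2B (AT5G38420), GLDP2 (AT2G26080) or GDCH (AT2G35370).

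RNA was sequenced from true leaves of 21-day-old plants of the line RV31, all raised in white light at a fluence rate of 70 µmol per m2 and s, in 6 groups of 2 libraries with the replicate numbers 41 and 42. According to the paper, the plants of the UV-B experiment were moved to a lower white light fluence rate the night before treatment. The UV-B group was then irradiated with UV-B at 3 µmol per m2 and s for 4 h, and the white light group was returned to 70 µmol per m2 and s without UV-B. The herbivory group was exposed to larvae of Plutella xylostella (diamondback moth) for 1 h. The MeJA group was sprayed with 4 mL of 100 µM methyl jasmonate, the ethanol and UN65 group with 4 mL of 0.01% ethanol and 0.01% UN65, and the water group with 4 mL of distilled water. The sources place the herbivory harvest 3 or 4 h after feeding, and the other harvests at 4 h. They describe pooled RNA of independent replicates, and whether each library holds such a pool is not known, so the p-values measure only the spread between these libraries. The herbivory and sprayed plants were kept at a lower white light fluence rate, the sprayed plants under a cover, and the white light given beside UV-B is not stated. No unfed control library of the herbivory experiment was analysed here, and herbivory was therefore set against white light and against water.

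In the Calvin cycle, Rubisco joins carbon dioxide to ribulose bisphosphate, the product is reduced with ATP and NADPH from the light reactions, and the acceptor is then regenerated. Rubisco also reacts with oxygen, and photorespiration recovers carbon from the product through steps in the chloroplast, the peroxisome and the mitochondrion. The nuclear genes of both pathways are among the most abundant transcripts of a green leaf and are known to respond to light and to the carbohydrate status of the leaf.

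B. napus carries an A and a C subgenome, and most listed genes were present in several copies. Of the 113 members, 57 lay in the A subgenome (51 on assembled chromosomes and 6 on unplaced sequence) and 56 in the C subgenome (49 and 7). GLYK, GGT1 and RCA had 6, 7 and 7 fitted copies, whereas GAPB, PGLP1 and GLDP1 had 2 each and RBCS1A had 1. Copies from the A subgenome supplied between 51.9% and 59.3% of the summed member FPKM in the 12 libraries. Copies are similar in sequence and reads can be divided between them, so each gene is also given as the sum over its copies. Of the 34 matched loci under the level requirement, 18 were at 0 in all libraries and the highest value was 1.26 FPKM. The members nearest the requirement were BnaC06g40610D (GLYK) and BnaC07g13140D (GGT1), with a second-highest value of 1.11 and 1.63 FPKM, and the loci just outside it were BnaC09g17360D (GGT1) with 0.811 FPKM and BnaC02g17180D (RBCS1B) with 0.694 FPKM. One member could not be fitted: the RBCS1B copy BnaC04g30870D (chromosome C04, 32746245 to 32747451), which the authors' software marked in the herbivory table as having too much data, was listed at 0 in both herbivory libraries and stood between 6629 and 24245 scaled FPKM elsewhere. This abundant copy was also left out of every sum over copies and of all shares of summed FPKM, so those of RBCS1B are incomplete.

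The tissue label was checked against marker genes. Leaf mesophyll markers (CA1, PSBO1 and PSAD1) were high in all libraries, with a summed scaled FPKM of 4428 to 18340, and all 3 root hair markers (COBL9, EXPA7 and PRP3) together stayed at or below 0.164. How many reads a library had is not known. Set against herbivory replicate 42, between 24.5% and 40.4% of the low values sat on a common step in the other libraries, except number 41 of UV-B and of ethanol and UN65, and if that step is 1 read, a read was worth up to 1.67 times as much, in white light replicate 41. Stretches of 4 chromosomes were low in some libraries, and the one on C01, low in herbivory replicate 41 alone, was the only one that held members: BnaC01g00070D (FBA2), BnaC01g01090D (SHM1) and BnaC01g05230D (GLDP1).

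Levels below are scaled FPKM, that is, FPKM divided, library by library, by the median of the ratios to the average library. Without the unfitted RBCS1B copy, the members together made up 4.08% to 11.2% of the summed FPKM of a library, with a median of 6.19%. The genes of the Rubisco small subunit, which assembles with the plastid-encoded large subunit, supplied 2.00% to 5.60%, again without that copy. The sum over the remaining copies of RBCS1B (AT5G38430) was lowest at 8257 in herbivory replicate 42, had a median of 14100, and was highest at 37552 in UV-B replicate 42. RBCS3B (AT5G38410) ranged from 6198 to 29993 with a median of 10518. RBCS1A (AT1G67090) had a single fitted copy, BnaA02g12810D (chromosome A02, 6923391 to 6924419), and stayed between 0.206 and 19.6. RCA (AT2G39730), the activase that frees Rubisco from inhibitory sugar phosphates, ranged from 2623 to 16273 with a median of 6109. RBCS1B, RBCS3B and RCA stood above the other genes with several copies, whose medians ran from 312 for FBA1 to 3250 for GAPA2.

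In the reduction steps, PGK1 (phosphoglycerate kinase) had a median of 1370, and the subunits of the plastid glyceraldehyde phosphate dehydrogenase had medians of 629 for GAPA1, 3250 for GAPA2 and 802 for GAPB. In the regeneration steps, the aldolases FBA1 and FBA2 had medians of 312 and 2745, the bisphosphatases FBPase and SBPASE 470 and 907, the transketolase TKL1 830, the epimerase RPE 746 and the phosphoribulokinase PRK, which remakes the acceptor of carbon dioxide, 1500. FBA1 varied most among the genes with several copies: its highest sum, 2289 in white light replicate 41, was 27.4 times its lowest, 83.4 in MeJA replicate 41. GAPA1 varied least, by 2.58 times. In photorespiration, the chloroplast enzymes PGLP1 (phosphoglycolate phosphatase) and GLYK (glycerate kinase) had medians of 505 and 318. The peroxisomal glycolate oxidases GOX1 and GOX2 had medians of 1191 and 723, the aminotransferases GGT1 and AGT1 1116 and 1241, and hydroxypyruvate reductase HPR1 709. The mitochondrial glycine decarboxylase subunits GLDP1 and GLDT and the serine hydroxymethyltransferase SHM1 had medians of 784, 847 and 1442.

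The members moved together between the replicate libraries of a group. In white light, 111 of 112 members were higher in replicate 41, with a median of 2.21-fold. In water, 110 were higher in replicate 41, with a median of 2.44-fold, and in herbivory 103, with a median of 1.67-fold. In UV-B and in MeJA the order was the other way round: 102 members were higher in replicate 42 in each, by a median of 1.77-fold and 1.83-fold. The ethanol and UN65 libraries were closest, with 74 members higher in replicate 42 and a median of 1.13-fold. The replicate numbers therefore did not order the libraries in one direction.

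**Figure D1:**
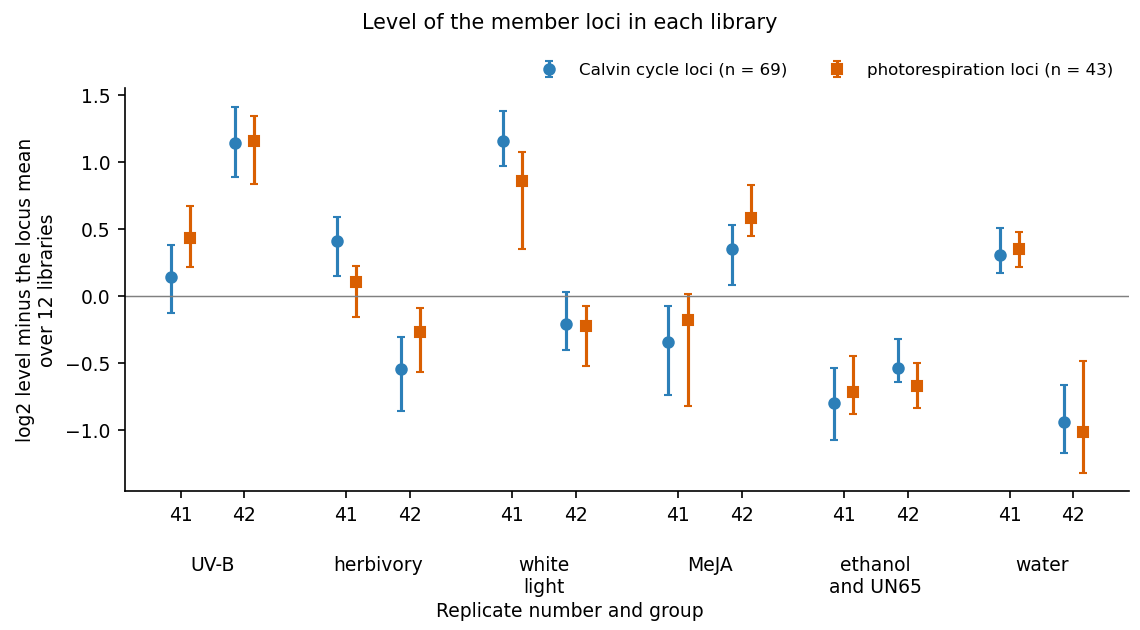
Each point is the median over loci of the log2 level minus the mean of that locus over 12 libraries, with bars from the lower to the upper quartile, for Calvin cycle loci (circles, n = 69) and photorespiration loci (squares, n = 43). Both pathways stand highest in UV-B replicate 42 and white light replicate 41 and lowest in water replicate 42, and the 2 libraries of a group differ most in water and white light.

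With the scaling used here, the spread between replicates was larger for the members than for all loci in 5 of 6 groups and about equal in ethanol and UN65. The median absolute log2 difference between the libraries of a group was 0.86 in UV-B, 0.76 in herbivory, 1.15 in white light, 0.91 in MeJA and 1.29 in water for members, against 0.49, 0.35, 0.37, 0.32 and 0.36 for all loci. In ethanol and UN65 it was 0.29 for members and 0.27 for all loci. Other genes of the 2 pathways, with 111 loci, also exceeded all loci in the same 5 groups, though by less. Their difference was 0.73 in UV-B, 0.59 in herbivory, 0.76 in white light, 0.47 in MeJA and 0.62 in water. With all columns brought to equal totals the same library remained the higher one for most members in each group, but the spread was larger for the members in fewer groups. It was then 0.77 in white light, 0.85 in MeJA and 1.02 in water for members, against 0.43, 0.32 and 0.41 for all loci. In herbivory it was 0.45 for members and 0.44 for all loci, in ethanol and UN65 0.28 for both, and in UV-B 0.44 for members and 0.53 for all loci. The deposited values of the groups come from tables that the authors normalized separately, but the 2 libraries of a group share a table.

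**Figure D2:**
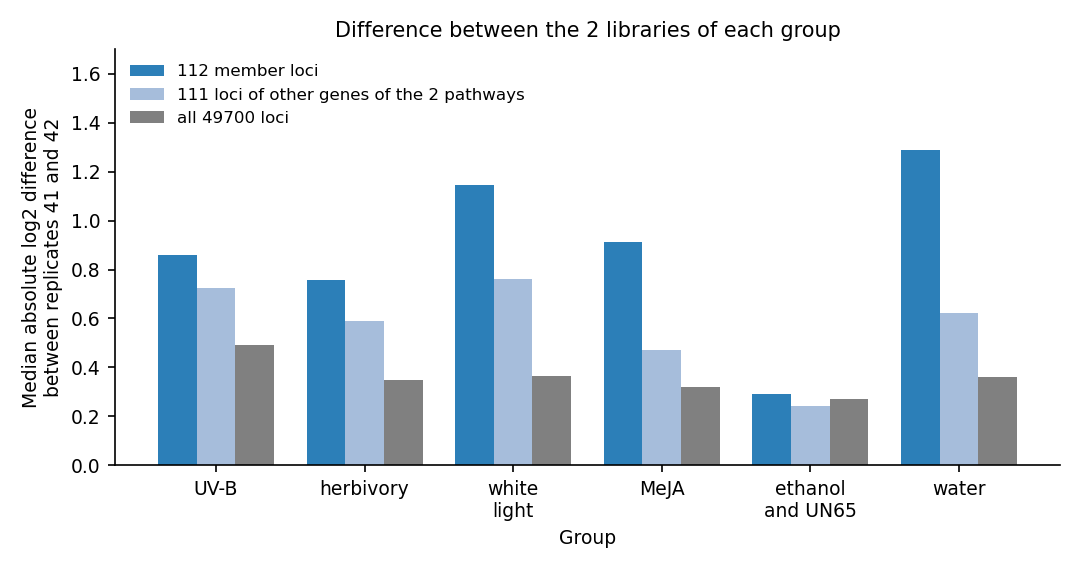
Bars give the median absolute log2 difference between replicates 41 and 42 in each group, for the 112 member loci (dark blue), 111 loci of other genes of the same pathways (light blue) and all 49700 loci (grey). Members differ by 0.76 or more in 5 groups and by 0.29 in ethanol and UN65, whereas all loci lie between 0.27 and 0.49. In the same 5 groups the other genes of the pathways lie between the members and all loci.

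Other features of the libraries moved with the members, and their part in the shift was not tested. In all 6 groups the library with the higher member level also had the larger summed scaled FPKM, from 741324 against 734210 in ethanol and UN65 to 1307530 against 882668 in UV-B. The summed mesophyll markers were 14422 in UV-B replicate 42 and 7763 in replicate 41, 18340 in white light replicate 41 and 8296 in replicate 42, and 14366 in water replicate 41 and 6842 in replicate 42. In these bulk samples, fewer cells of a type and less RNA per cell cannot be told apart.

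The low light and sugar response markers SEN1, ASN1, DIN10 and BGLU30, genes known to be expressed in darkened or sugar-starved leaves, differed between replicates as well. Their summed level was 1223 in MeJA replicate 41 and 98.6 in replicate 42, and 1155 in water replicate 42 and 109 in replicate 41. In white light it was 55.3 in replicate 42 and 11.4 in replicate 41, in herbivory 41.4 in replicate 42 and 14.4 in replicate 41, and in ethanol and UN65 275 in replicate 41 and 177 in replicate 42. In these 5 groups the library with more of the markers had the lower member level. In UV-B the sums were 757 in replicate 41 and 753 in replicate 42, but the single markers differed in opposite directions, with SEN1 at 545 and 417 and ASN1 at 15.8 and 73.3.

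**Figure D3:**
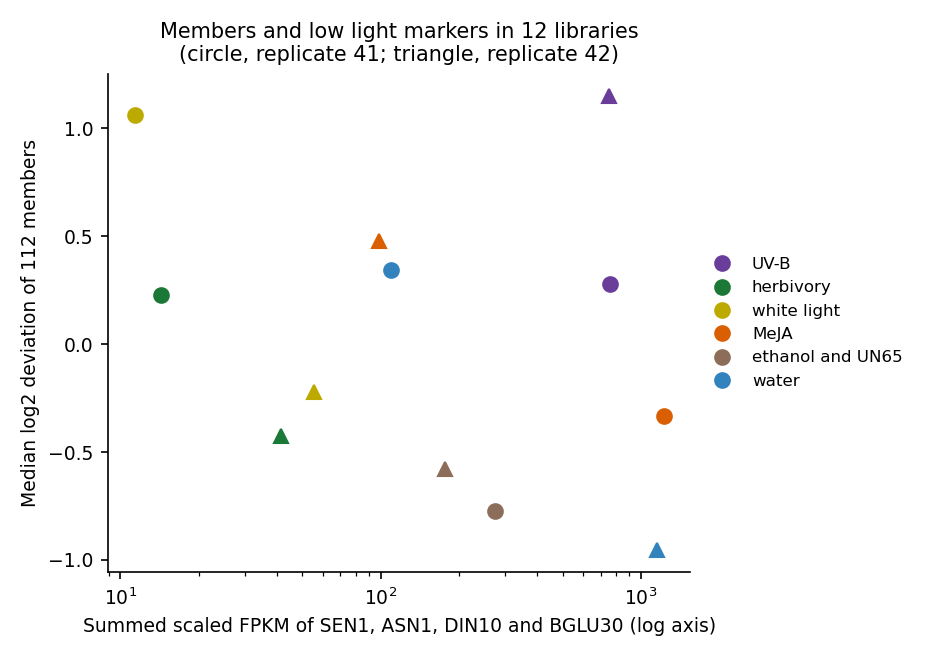
Each of 12 libraries is placed by the summed scaled FPKM of 4 low light and sugar response genes (log axis) and by the median log2 deviation of 112 members from their means over the libraries, with replicate 41 as circles and replicate 42 as triangles. Within every group other than UV-B, the library with more marker expression lies lower.

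UV-B was compared with its white light control to ask how the pathways responded to UV-B irradiation. No member locus passed the test, which was limma with Benjamini-Hochberg adjustment over all loci (adjusted p below 0.05, and a fold change of 1 or more on the log2 scale in either direction). The background was 3.54% of all loci called. Of the 112 members, 4 had an unadjusted p under 0.05, against 10876 of all 49700 loci. The median log2 fold change of the members was 0.29, with 85 above 0 and 27 below, beside a median of 0.00 over all loci. Summed over copies, 20 of 25 genes were above 0 and 5 below, and none was called (background 4.99% of summed genes, smallest adjusted p 0.24). The direction rested on single libraries: the median was -0.38 without white light replicate 42 and -0.11 without UV-B replicate 42, but 0.94 without white light replicate 41.

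The pathways differed in how many members lay above 0, a difference that was not tested. Of 43 photorespiration loci, 41 had a log2 fold change above 0, with a median of 0.56, whereas 44 of 69 Calvin cycle loci did, with a median of 0.14. All 24 peroxisomal and all 8 chloroplast copies of photorespiration were above 0, with medians of 0.65 and 0.54, and 9 of 11 mitochondrial copies, with a median of 0.28. Among the copies of the Rubisco small subunit 6 of 13 were above 0. Other genes of the same pathways did not show this split. Of these, 48 of 71 photorespiration loci and 27 of 40 Calvin cycle loci were above 0, with medians of 0.21 and 0.19. Both UV-B libraries exceeded both white light libraries at 19 of 112 members, of which 15 belonged to photorespiration, and at 24.2% of all loci. Without white light replicate 42, 21 of 43 photorespiration loci and 7 of 69 Calvin cycle loci were above 0. Within single libraries, the median deviation of photorespiration loci minus that of Calvin cycle loci was 0.30 and 0.01 in UV-B and -0.30 and -0.02 in white light. These groups did not overlap but came close to each other in UV-B replicate 42 and white light replicate 42. The herbivory libraries were at -0.31 and 0.28, so that replicates of a single group spanned nearly this whole range.

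HPR1 (AT1G68010), which reduces hydroxypyruvate to glycerate in the peroxisome, had the largest difference among the summed genes. Its sum was 1496 and 2130 in the UV-B libraries, against 1172 and 441 in the white light libraries, so the groups did not overlap. The log2 fold change was 1.31 with a standard error of 0.63, which did not pass the test in limma (adjusted p = 0.24). Relative to the mean log2 level of the 25 member genes in the same library, which removes the shared shift, HPR1 was at 0.65 and 0.24 in UV-B, against -0.52 and -0.66 in white light, as a difference from its own mean over the libraries. The libraries of all other groups also lay above both white light values. They ranged from -0.32 in ethanol and UN65 replicate 42 to 0.44 in MeJA replicate 42, so this position above white light was not particular to UV-B. Its most abundant copy was BnaA07g26770D (chromosome A07, 19587429 to 19590881), with 727 and 1034 in UV-B, against 540 and 223 in white light.

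AGT1 (AT2G13360), the serine:glyoxylate aminotransferase, had sums of 1824 and 2241 under UV-B, against 1519 and 1024 in white light. The log2 fold change of its sum was 0.70 with a standard error of 0.41 (limma, adjusted p = 0.33). GLYK had sums of 347 and 624 under UV-B, against 424 and 202 in white light, and GGT1 had 1774 and 2894, against 1997 and 948. In contrast to AGT1 and HPR1, these values overlapped between the groups. The sums of RBCS1B were 12915 and 37552 under UV-B, against 33342 and 11520 in white light, a log2 fold change of 0.17 with a standard error of 0.96. FBA1 had the widest error, with 302 and 1634 under UV-B, against 2289 and 275 in white light, and a log2 fold change of -0.18 with a standard error of 1.45. For such genes a change of several fold in either direction was not detectable.

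The 2 single loci with the smallest p were BnaA02g28150D (GAPA1, chromosome A02, 20765456 to 20767169) and BnaA09g08290D (AGT1, chromosome A09, 4054992 to 4057194). The GAPA1 copy had 48.6 and 53.2 under UV-B, against 27.5 and 11.5 in white light, and the log2 fold change was 1.46 ± 0.48 (SE, n = 2 each, limma adjusted p = 0.12). The AGT1 copy had 488 and 569, against 305 and 200, with a log2 fold change of 1.09 ± 0.39 (limma adjusted p = 0.15). Neither pair of groups overlapped. The low light and sugar response markers were higher at the same time, with a median log2 fold change of 2.92 over 11 loci of which 2 were called, and summed levels of 757 and 753 in UV-B, against 11.4 and 55.3 in white light.

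**Figure D4:**
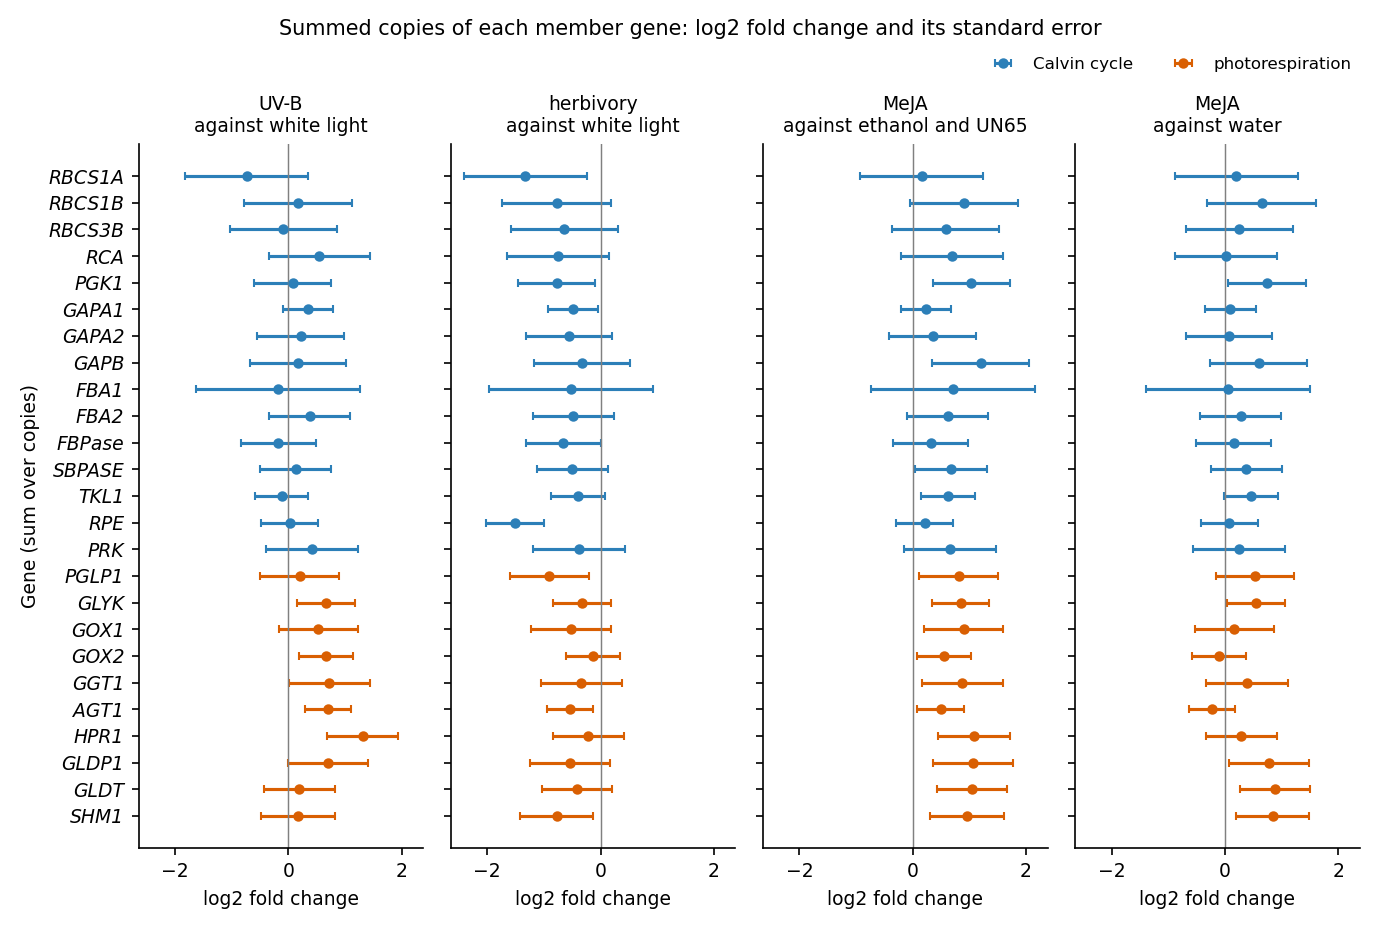
Points give the log2 fold change of each member gene summed over its copies and bars the standard error from limma (2 libraries a group), in 4 comparisons, with Calvin cycle genes in blue and photorespiration genes in orange. No gene passed the test in any of these comparisons, HPR1 stands farthest right under UV-B at 1.31, and RPE farthest left under herbivory at -1.51.

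Herbivory was compared with white light to ask how the pathways responded to feeding by larvae. No member was called, with a background of 0.0221% of all loci. At 6 members the unadjusted p was under 0.05, against 4532 of all 49700 loci. The median log2 fold change of the members was -0.47, with 9 above 0 and 103 below, beside -0.01 over all loci. All 25 summed genes were below 0 and none was called (background 0% of summed genes, smallest adjusted p 0.41). The Rubisco small subunit copies (13 of 13 below 0, median -0.80) and the activase copies (7 of 7, median -0.71) lay lowest, and the peroxisomal copies nearest 0 (20 of 24, median -0.28). The direction rested on white light replicate 41, without which the median was 0.09 and 65 of 112 members were above 0. Both herbivory libraries lay below both white light libraries at 13 of 112 members, against 20.2% of all loci.

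RPE (AT5G61410), the ribulose phosphate epimerase, had the lowest log2 fold change of the summed genes, followed by the weakly expressed RBCS1A at -1.33 with a standard error of 1.09. Its sum was 527 and 275 in the herbivory libraries, against 1423 and 834 in the white light libraries, with no overlap. The log2 fold change was -1.51 with a standard error of 0.51 (limma, adjusted p = 0.41). Relative to the mean of the member genes in the same library, RPE was at -0.64 and -0.74 in herbivory, against -0.02 and 0.49 in white light. On this measure the water libraries, at -0.10 and 0.44, also lay above herbivory. MeJA replicate 41 was at 0.61 but replicate 42 at -0.79, so a position this low was not particular to herbivory. Of its copies, BnaC09g48610D (chromosome C09, 47419487 to 47421643) had 82.2 and 48.5 in herbivory, against 206 and 167 in white light, and the log2 fold change was -1.54 ± 0.46 (limma adjusted p = 0.37). Against water, with RPE sums of 834 and 506, the herbivory sums overlapped.

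BnaC01g00070D (FBA2, chromosome C01, 20513 to 22916) had the smallest p among the members. It had 31.0 and 117 in herbivory, against 584 and 240 in white light, and the log2 fold change was -2.61 ± 0.75 (limma adjusted p = 0.36). It lies in the low stretch of herbivory replicate 41, as does the SHM1 copy BnaC01g01090D (chromosome C01, 476130 to 479325), which had 12.5 and 180 in herbivory, against 705 and 352 in white light. Without herbivory replicate 42 that SHM1 copy was called as lower, with a log2 fold change of -5.21 (adjusted p = 0.018), on the strength of the library with the low stretch. The other SHM1 copies were higher in herbivory replicate 41 than in replicate 42, for example BnaA01g00170D with 525 and 362.

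Against water, whose plants were kept at the same lower fluence rate but were sprayed and covered, herbivory gave no clear direction. No member was called, with a background of 1.07%, and 4 had an unadjusted p under 0.05, against 9140 of 49700 loci. Of 112 members 66 were above 0 and 46 below, with a median of 0.25. The median was -0.44 without water replicate 42 and -0.14 without herbivory replicate 41. The smallest p belonged to the AGT1 copy BnaA09g08290D, with 194 and 154 in herbivory, against 481 and 567 in water, a log2 fold change of -1.59 ± 0.39 (limma adjusted p = 0.08). BnaC01g00070D followed with 31.0 and 117 in herbivory, against 365 and 167 in water (adjusted p = 0.20).

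UV-B was also set against herbivory. Since both treatments were compared with the same white light libraries, this contrast tests whether their effects differed, although treatment and visible light cannot be told apart. Of 112 members 2 were called, both higher under UV-B, against a background of 7.71% of all loci. At 19 members the unadjusted p was under 0.05, against 13555 of 49700 loci. The median log2 fold change of the members was 0.77, with 109 above 0 and 3 below, beside 0.01 over all loci. With all columns brought to equal totals it was 0.27, where the median over all loci was -0.34. All 25 summed genes were above 0, and none was called (background 10.1% of summed genes, smallest adjusted p 0.08, 3 genes with an unadjusted p under 0.05). Both UV-B libraries exceeded both herbivory libraries at 53 of 112 members, against 27.2% of all loci. Among these were 32 of the 43 photorespiration loci and 21 of the 69 Calvin cycle loci.

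The called members were an AGT1 copy and an FBA2 copy. BnaA09g08290D (AGT1) rose under UV-B relative to herbivory, with 488 and 569 in UV-B, against 194 and 154 in herbivory, and a log2 fold change of 1.60 ± 0.39 (limma adjusted p = 0.041, between 0.043 and 0.26 over the alternatives). The other copies of AGT1 were also higher in both UV-B libraries than in both herbivory libraries, for example BnaC03g45180D with 564 and 603, against 323 and 279. The sum over the AGT1 copies was 1824 and 2241 in UV-B, against 927 and 791 in herbivory, with a log2 fold change of 1.24 ± 0.41 (limma adjusted p = 0.08). BnaC01g00070D (FBA2) had 606 and 338 in UV-B, against 31.0 and 117 in herbivory, and a log2 fold change of 2.88 ± 0.75 (limma adjusted p = 0.049, between 0.046 and 0.21 over the alternatives). It lies in the low stretch of herbivory replicate 41, and leaving out members in such stretches left 1 call. Both calls were lost when the values were used as deposited, with equal totals, with the compared groups alone and with no filter, and with a replicate block 0 members were called. The AGT1 copy was called in none of the fits that left out 1 of the 4 libraries. Without herbivory replicate 41 no member was called, without UV-B replicate 41 only the RPE copy BnaC09g48610D, without UV-B replicate 42 only the FBA2 copy BnaAnng40850D, and without herbivory replicate 42 both C01 loci BnaC01g00070D and BnaC01g01090D.

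Among the summed genes, RPE had 817 and 1497 in UV-B, against 527 and 275 in herbivory, and a log2 fold change of 1.54 ± 0.51 (limma adjusted p = 0.08). HPR1 had 1496 and 2130 in UV-B, against 785 and 488 in herbivory, and a log2 fold change of 1.53 ± 0.63 (adjusted p = 0.14). RCA had 9476 and 16273, against 8205 and 3118, and a log2 fold change of 1.30 ± 0.90 (adjusted p = 0.36). These groups did not overlap, but the values of RBCS1B, 12915 and 37552 in UV-B, against 15882 and 8257 in herbivory, did.

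**Figure D5:**
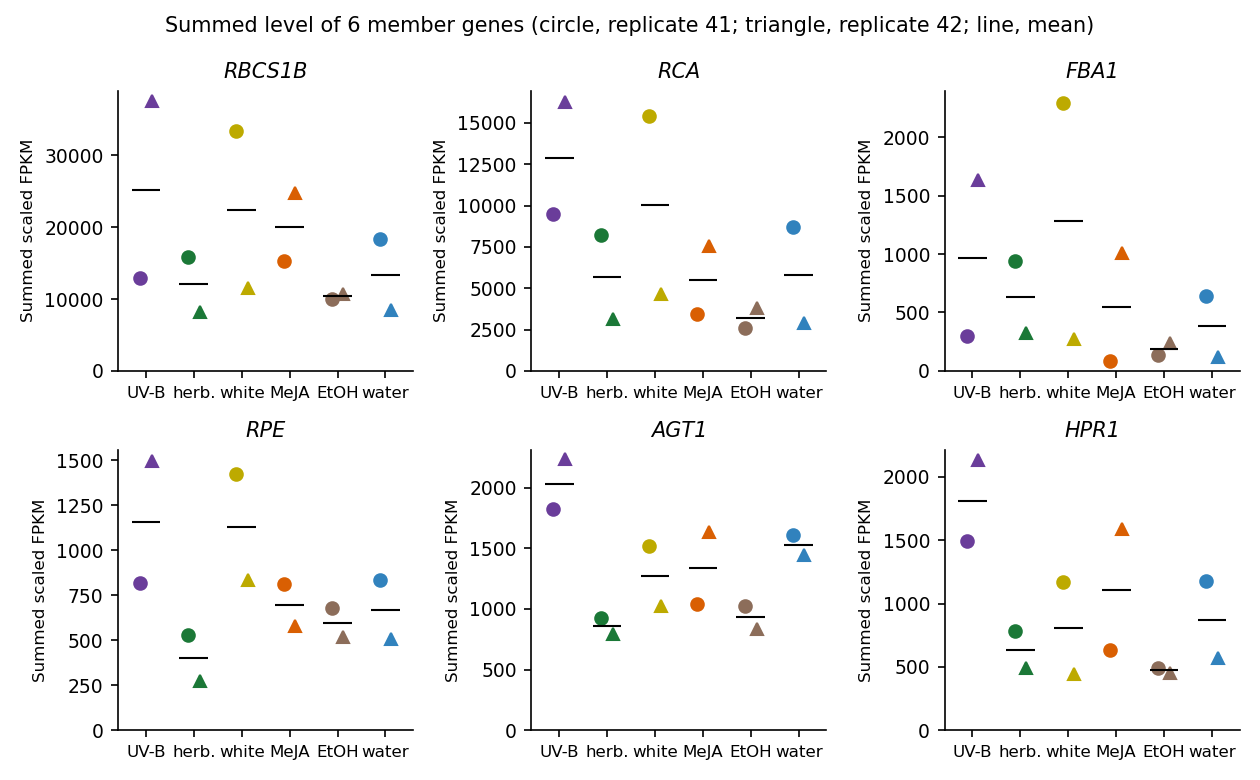
Summed scaled FPKM of 6 member genes in each library, with replicate 41 as circles, replicate 42 as triangles and the mean as a line (herb., herbivory; white, white light; EtOH, ethanol and UN65), on axes that start at 0. The RBCS1B sums leave out its unfitted copy. RBCS1B, RCA and FBA1 spread widely within groups, whereas both UV-B values of AGT1 and HPR1 lie above both white light and both herbivory values, and both herbivory values of RPE lie below both white light values.

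MeJA was compared with water and with the solution of ethanol and UN65, the labelled controls of the spray. These comparisons share the MeJA libraries. Against water no member was called, with a background of 0.455%, and 4 had an unadjusted p under 0.05, against 3588 of 49700 loci. The median log2 fold change was 0.30, with 85 members above 0 and 27 below, beside -0.02 over all loci. Summed over copies, 23 of 25 genes were above 0 and none was called (background 0.844% of summed genes, smallest adjusted p 0.93). The median was -0.28 without water replicate 42 and -0.06 without MeJA replicate 42. All 11 mitochondrial copies were above 0, with a median of 0.80, and 14 of 24 peroxisomal copies, with a median of 0.09.

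Against ethanol and UN65 no member was called either, with a background of 0.00402%. At 3 members the unadjusted p was under 0.05, against 4369 of 49700 loci. Here 109 members were above 0 and 3 below, with a median of 0.66, and the median lay between 0.34 and 1.11 when single libraries were left out. Both MeJA libraries exceeded both ethanol and UN65 libraries at 59 of 112 members, against 21.8% of all loci. Of these, 26 belonged to the 43 photorespiration loci and 33 to the 69 Calvin cycle loci. Among the summed genes, GAPB had 624 and 1513 in MeJA, against 367 and 486 in ethanol and UN65, and a log2 fold change of 1.20 ± 0.85. HPR1 had 634 and 1586, against 491 and 454, and GLDP1 had 618 and 1829, against 332 and 775, and the last of these overlapped.

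The member with the smallest p under MeJA was BnaA06g07360D (GLDT, the T-protein of glycine decarboxylase, chromosome A06, 3915658 to 3923909), a weakly expressed copy. It had 6.22 and 7.71 in MeJA, against 1.69 and 1.26 in ethanol and UN65 and 1.74 and 0.720 in water, so that MeJA overlapped with neither control. Its log2 fold change was 1.87 ± 0.37 against water (limma adjusted p = 0.083) and 1.69 ± 0.37 against ethanol and UN65 (adjusted p = 0.23). The abundant copy BnaC08g41790D had 234 and 340 in MeJA, against 251 and 113 in water. Adjacent loci matched to GGT1, the glutamate:glyoxylate aminotransferase, came next. BnaA07g10010D (chromosome A07, 9588438 to 9588979) had 63.5 and 249 in MeJA, against 44.9 and 5.45 in water, with a log2 fold change of 2.88 ± 1.04 (limma adjusted p = 0.48). BnaA07g10020D (chromosome A07, 9589052 to 9591240) had 58.4 and 183 in MeJA, against 25.4 and 11.5 in ethanol and UN65, with a log2 fold change of 2.53 ± 1.02 (adjusted p = 0.52). These 2 loci are next to each other and moved alike, so they may not be independent, but each was counted as a separate member in all counts and medians.

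The spray controls were also set against each other. For ethanol and UN65 against water no member was called, with a background of 0.00402%. None of the members had an unadjusted p under 0.05, against 1477 of 49700 loci. The median of the members was -0.33, with 9 above 0 and 103 below, and 0.29 without water replicate 41. The smallest p belonged to the AGT1 copies BnaC09g08540D and BnaA09g08290D, which had 194 and 180, and 323 and 274, in ethanol and UN65, against 321 and 359, and 481 and 567, in water, at an adjusted p of 1.0 in limma.

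Other genes of the pathways were counted in the same fit. Of 32 such genes, 31 had a fitted locus, with 111 loci in all. Under UV-B against white light 1 of the 111 loci was called, higher, where 3.54% of all loci were called, and 75 were above 0, with a median of 0.20. This was BnaC01g03420D, a copy of CAT2, the leaf catalase that removes the hydrogen peroxide made by glycolate oxidase, with 11.8 and 16.8 in UV-B, against 2.79 and 1.48 in white light (log2 fold change 2.30 ± 0.42, limma adjusted p = 0.029). Under herbivory against white light and in the MeJA and spray comparisons none was called. Against water, the CP12-3 copy BnaC06g37420D was called as lower in herbivory, with 6.66 and 4.68 in herbivory, against 42.3 and 50.8 in water (log2 fold change -2.84 ± 0.36, adjusted p = 0.026). CP12 proteins hold phosphoribulokinase and glyceraldehyde phosphate dehydrogenase in an inactive complex.

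Between UV-B and herbivory 5 of these 111 loci were called, 4 higher and 1 lower under UV-B, a share below the 7.71% of all loci called. The higher ones were 3 of the 8 fitted CAT2 copies and the CP12-3 copy. The most abundant, the CAT2 copy BnaC03g65530D, had 245 and 839 in UV-B, against 32.0 and 35.2 in herbivory (log2 fold change 3.72 ± 0.83, limma adjusted p = 0.031). The lower one was BnaC03g19300D, a copy of GLDH2, an H-protein gene of glycine decarboxylase, with 1.16 and 0.819 in UV-B, against 4.38 and 4.04 in herbivory (adjusted p = 0.011). The white light values of that CAT2 copy, 181 in replicate 41 and 51.3 in replicate 42, differed in the same direction as those of the members.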

How the data were processed

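True leaf RNA-seq libraries of B. napus RV31, 12 in 6 groups of 2, were analysed. Per the labels, the authors used TopHat2 2.1.12 and Cufflinks 2.2.1 with TAIR10 named as a build, and they deposited FPKM values per locus, with B. napus locus names, positions and Arabidopsis matches; the study's methods name a Brassica unigene set, a B. napus genome and the Arabidopsis genome as references, with no B. napus version given in the sources used here. The matrix is called counts, but the mean of the UV-B columns equalled the deposited UV-B FPKM at 101040 of 101040 loci (relative tolerance 0.001). The planned test was limma, with a count model only if the matrix held raw counts, so limma was used. Another 22 single-library columns matched no label and were not used, nor were the authors' fold changes and p-values. Columns came from tables normalized separately, so each was rescaled by the median of its ratios to the average library, taken over loci above 0 in all 12 libraries. The 49700 loci with at least 1 FPKM in 2 or more libraries were fitted on log2(FPKM + 1) with limma 3.58.1 in R 4.3.3 (a mean per group, trended prior, all 12 libraries, no block). Fold changes are on this scale and understate changes of low loci. A locus was called when its p, adjusted after Benjamini-Hochberg, was below 0.05 and its fold change was 1 or more on the log2 scale in either direction. Copies were also summed per Arabidopsis gene, without the unfitted RBCS1B copy. With 2 libraries against 2, an exact two-sided permutation test cannot go below p = 0.333, so none was used. Low stretches were runs of 51 neighbouring loci (step 10) in which a library's median log2 deviation from the median library did not exceed -1. Read depth is unknown. Members and gene lists were chosen with earlier results of these data known. Single loci named are the most abundant copy of a gene and, in each comparison, up to 4 called loci in each direction whose mean log2 value was 3 or more or, where none was called, the 2 with the smallest p; other loci were named after their values were seen. Simulated data with known changes were used to check the fit. Alternatives were no filter, a pseudocount of 0.1, values as deposited, equal totals, the compared groups alone, a replicate block, no minimum fold change, each library left out, and members outside low stretches. Added after the data were seen were a median ratio over the loci past the filter, the same alternatives for summed copies, and the pathway counts without each library.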

Additional observations from a re-analysis of the deposited data

Results flagged for a closer look

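The effects of UV-B and of herbivory, both measured against white light, differed by limma's test of their difference at 2 of 112 members. This is a smaller share than the 7.71% of all loci called in that contrast. The AGT1 copy BnaA09g08290D differed by 1.60 on the log2 scale (adjusted p = 0.041): its effect was 1.09 under UV-B and -0.51 under herbivory, neither of which passed the test alone. The FBA2 copy BnaC01g00070D differed by 2.88 (adjusted p = 0.049), with an effect of 0.27 under UV-B and -2.61 under herbivory. It lies in the stretch of chromosome C01 that was low in herbivory replicate 41, where it had 31.0 scaled FPKM, against 117 in replicate 42. Groups of 2 libraries are too small for a check of single samples that stand apart.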

How the results depend on the processing

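For UV-B against herbivory, where 2 members were called, 0 were called with no filter, with values as deposited, with equal totals, with the compared groups alone and with the replicate block, and 1 with a pseudocount of 0.1, with a median ratio over loci past the filter and outside low stretches; leaving out single libraries gave 0 to 2. The median of the members there was 0.27 with equal totals and 0.35 to 1.30 without single libraries. Leaving out single libraries gave 0 to 1 calls for UV-B against white light, herbivory against white light and herbivory against water, and medians of -0.38 to 0.94 for UV-B against white light, -1.17 to 0.093 for herbivory against white light, -0.28 to 0.90 for MeJA against water, -0.98 to 0.29 for ethanol and UN65 against water and -0.44 to 0.84 for herbivory against water. The cause was not tested. The locus called for UV-B against white light, without UV-B replicate 42, was the FBA2 copy BnaAnng40850D, and both called for herbivory were the SHM1 copy BnaC01g01090D, without herbivory replicate 42. No call of a summed gene was made under any of the alternatives run. No named locus changed direction. Equal totals moved the median of all loci to 0.27 for herbivory against white light, -0.34 for UV-B against herbivory, -0.19 for MeJA against ethanol and UN65, -0.11 for MeJA against water and 0.10 for ethanol and UN65 against water, and values as deposited moved it to 0.13 and -0.19 for the first 2 of these. The labels give the replicate numbers no shared batch, and 2 numbers a group are too few to settle a pairing from the data: deviations of same-numbered libraries correlated above 0.1 in 4 of 15 pairs of groups (-0.37 to 0.41), among them all 3 pairs of herbivory, white light and water (0.30, 0.20 and 0.41). Within each number the median member deviation was lower in herbivory than in white light, at 0.23 against 1.06 in 41 and -0.43 against -0.22 in 42. The block changed no other count of called members. With 2 libraries a group, changes as large as the replicate differences could not be told from spread. These differences had a group median of up to 2.44-fold over members. Among summed genes with several copies they reached 12.1-fold, for FBA1 in MeJA, and the weakly expressed RBCS1A differed by 95.3-fold in herbivory.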

Other observations

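Epidermal markers (ATML1, FDH, CER5 and PDF1) summed to 178 and 98.7 scaled FPKM in the UV-B libraries, against 273 and 164 in the white light libraries, and the groups overlapped. PDF1 lay the other way, with 7.04 and 1.67 in UV-B, against 1.54 and 0.367 in white light. None of the 16 fitted loci of these genes was called. The phloem companion cell marker SUC2 had 272 and 284 in UV-B, against 165 and 135 in white light, with no overlap and no locus called. It had 161 and 223 in MeJA, against 86.7 and 97.2 in ethanol and UN65. Guard cell markers (KAT1 and MYB60) stayed between 26.4 and 49.3 in all libraries.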
